A study of Mus musculus with 14 samples.

Results

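Differences between individual mice within a group were measured on 14 whole mouse genome arrays of colon RNA, and the spread under colitis was set against the spread on water. For every probe, the value of each mouse was taken as a deviation from the mean of its own genotype and treatment group, and the SD of these deviations was computed over the 6 DSS arrays and over the 8 water arrays. The members were the probes well above background on all 14 arrays with no missing value, 23384 of 41174 probes on the array, and these stood for 13335 of the 19092 named genes of the array. The mice were C57BL/6 females of 4 to 6 months given 2.5% dextran sulfate sodium (DSS) in the drinking water for 7 days, or regular water alone. Flox mice carry loxP-flanked alleles of Nr3c1, the gene of the glucocorticoid receptor (GR), on both chromosomes. GR iKO mice carry the same alleles and a Villin-cre transgene, which removes the receptor in the intestinal epithelium and leaves it in the other cells of the colon. There were 4 Flox and 4 GR iKO mice on water, 3 Flox mice on DSS (replicates 1, 2 and 4) and 3 GR iKO mice on DSS (replicates 1, 3 and 4), with 1 array per mouse.

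DSS injures the lining of the colon in patches, and ulcerated stretches without crypts lie beside stretches with an intact epithelium. The colon wall holds absorptive colonocytes, mucus-secreting goblet cells, hormone-secreting enteroendocrine cells and chemosensory tuft cells above a connective tissue with lymphoid follicles, vessels, nerves and smooth muscle. RNA of a whole colon adds these up, so fewer cells of a type and less RNA per cell cannot be told apart in the values below.

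A level is the log2 signal of a probe after subtracting the array's own 75th percentile, a value that lay between 262 (Flox DSS 4) and 1003 intensity units. The correlation across probes between arrays of a group was 0.987 to 0.994 for water and 0.958 to 0.991 for DSS. The epithelial markers Epcam, Cdh1, Vil1, Krt8, Krt20, Slc26a3, Muc2 and Cdx2 were well above background on every array. All 4 probes of Nr3c1 were lower in GR iKO than in Flox, with differences between −1.07 and −0.80 log2 units on water and between −0.86 and −0.40 on DSS. The exact two-sided permutation p was 0.0286 for 3 of these probes and 0.143 for the other on water, and 0.1 for 3 and 0.5 for the other on DSS, where 0.1 is the smallest that 3 against 3 arrays allow. RNA of the exocrine pancreas was on many arrays in very unequal amounts. The median level of 21 pancreatic enzyme and acinar genes was 9.40 on Flox DSS 4 and 6.15 on GR iKO DSS 3, against 5.43 and 3.50 on Flox DSS 1 and 2 and −3.22 on both GR iKO DSS 1 and 4. The water arrays also differed, from −3.24 to 4.03. These genes were collected after their values had been seen. Flox DSS 4 and GR iKO DSS 3 stood apart from the other DSS arrays on the first axis of deviation too, which held 45.4% of the within-group variance on DSS, so the values of the main lists are given with and without these 2 arrays and single genes by the value of every DSS array.

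**Figure D1:**
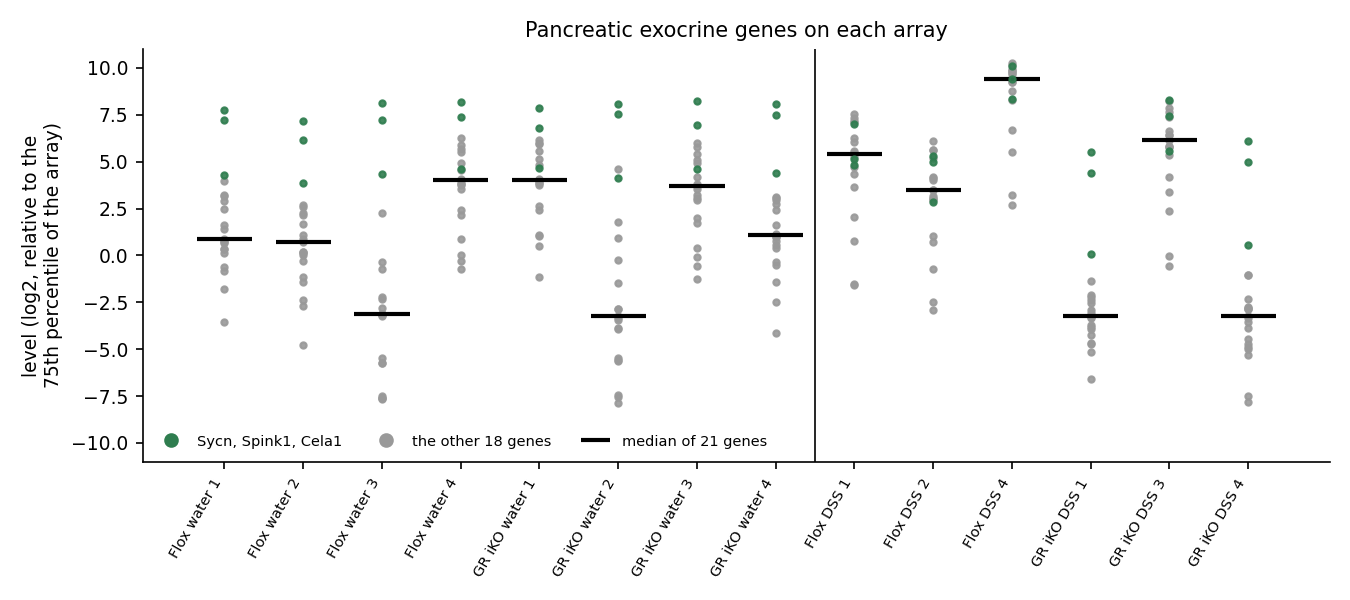
Level of 21 pancreatic exocrine genes on each of the 14 arrays (y axis, log2, array 75th percentile set to 0), with the median as a bar and Sycn, Spink1 and Cela1 in green. The median was highest on Flox DSS 4, at 9.40, and the green genes were high on water arrays where the other genes were near their lowest.

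The question of the first comparison was whether mice on DSS differed from each other more than mice on water. The median within-group SD of a probe was 0.161 log2 units on water and 0.297 on DSS, a median ratio of 1.83-fold, and the SD was larger on DSS for 85.1% of probes. By group, the median SD went from 0.153 on water to 0.215 on DSS in Flox mice and from 0.148 to 0.305 in GR iKO mice. The SD was larger on DSS in both genotypes for 52.4% of probes and smaller in both for 7.11%. A ratio of at least 2-fold was found for 43.6% of probes and of at least 4-fold for 7.69%.

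Each mouse was next given 1 value, the median over probes of its absolute deviation from its own group. On water this was 0.114, 0.160, 0.0811 and 0.122 in Flox 1 to 4 and 0.131, 0.0957, 0.0887 and 0.143 in GR iKO 1 to 4. On DSS it was 0.151, 0.157 and 0.236 in Flox 1, 2 and 4 and 0.277, 0.273 and 0.201 in GR iKO 1, 3 and 4. The ranges overlapped through Flox water 2, which lay above both of the lower Flox DSS arrays, and all GR iKO DSS arrays lay above every water array. The mean was 0.216 ± 0.055 (SD, n = 6) on DSS and 0.117 ± 0.027 (SD, n = 8) on water, a difference of 0.0990 with an exact two-sided permutation p of 0.000999 (smallest possible 0.000333). Within the 4 slides, on each of which both treatments were hybridised, the difference was 0.111, 0.0293, 0.172 and 0.0860. Without Flox DSS 4 and GR iKO DSS 3 it was 0.0525 (exact p = 0.0727), the median log2 SD ratio 0.36 in place of 0.87 and the share of probes with the larger SD on DSS 62.9%. Arrays of a group deviate from a shared mean, so that 1 array far from the others raises the deviation of all of them.

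GR iKO mice on DSS had a mean deviation of 0.25 ± 0.043 (SD, n = 3) against 0.181 ± 0.048 (SD, n = 3) in Flox mice on DSS. The difference was 0.0691 (exact two-sided permutation p = 0.2, smallest possible 0.1). A test of 3 against 3 arrays cannot reach 0.05, so it does not decide whether the genotypes differ. On water the genotypes differed by −0.0047 (exact p = 0.83). The test of the difference itself, DSS minus water in GR iKO minus the same in Flox, gave 0.0738. Its permutation p was 0.14 over all 1400 regroupings of genotype labels within each treatment.

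**Figure D2:**
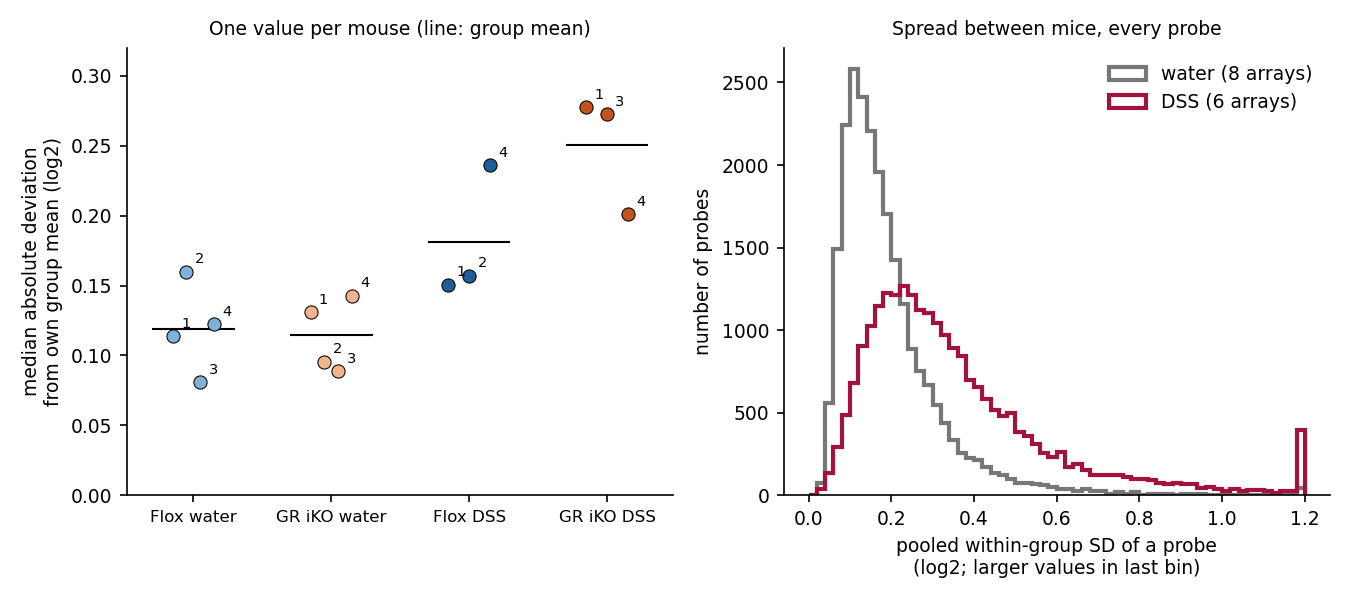
Left, the median absolute deviation of each mouse from the mean of its own group (log2 units, replicate number beside the point, line at the group mean); right, the number of probes by within-group SD on water and on DSS. The DSS points average 0.216 against 0.117 on water, and the DSS histogram lies to the right with a median of 0.297 against 0.161.

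Probe by probe, the number of calls depended on the test. In limma on the log variances of the 4 groups, 0 of 23384 probes were called at an adjusted p under 0.05 (smallest adjusted p 0.221, 0% called), while 3849 probes (16.5%) had the larger SD on DSS and 94 (0.402%) the smaller at an unadjusted p under 0.05. limma on absolute deviations called 1637 probes higher and 8 lower, and the F ratio of pooled variances called 1363 and 5. Absolute deviations inside a group are not independent of each other. In trials on simulated numbers, limma on log variances kept its error rate and a test on absolute deviations did not. Relative to the common rise of all probes, limma again called 0 (smallest adjusted p 0.573), with 530 probes (2.27%) above and 746 (3.19%) below that rise at an unadjusted p under 0.05. For normal deviations, the 95% interval of 1 gene's log2 SD ratio runs from 1.32 below to 1.60 above the estimate. Statements on single genes are descriptions of the values of these mice.

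The larger spread was found at all levels of expression. In 5 bins of mean level from dimmest to brightest, the median log2 SD ratio was 0.73, 0.81, 0.83, 0.89 and 1.11. It was 0.81 among probes whose mean differed from water by less than 0.25 log2 units and 1.28 among those beyond 4. Genes measured by more than 1 probe gave a check of these values. Over 4597 such genes the SDs on DSS of both probes had a Spearman correlation of 0.608 across genes, their log2 SD ratios one of 0.418, and their deviations correlated at a median r of 0.789 on DSS and 0.681 on water. The 8 spike-in probes, RNA added in known amounts, had a median SD of 0.0305 on water and 0.0503 on DSS relative to each other. Their scale was not equal between arrays. The median signal of spike-in spots was 1129 to 2810 intensity units on DSS arrays and 775.5 to 1315 on water arrays. The source of this difference was not tested.

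Gene groups differed in how far apart the mice lay. The log2 SD ratio is given as the median over the genes of a list, where 1 is a 2-fold larger SD on DSS. Over all 13335 genes it was 0.93. The SD was larger on DSS for 11524 of them (86.4%), and for 2371 (17.8%) at an unadjusted p under 0.05. Counts of list members with the larger SD are to be read beside that 86.4%. Members of a list that move together are not separate observations. The widest lists were Hox genes of the distal body axis (2.17, 9 genes), B and plasma cell genes (1.96, 19 genes), goblet cell and mucus genes (1.91, 26 genes), oxidative phosphorylation subunits (1.76, 74 genes) and tuft cell genes (1.71, 17 genes). The Hox list was collected after values had been seen, so its place at the top carries no test. The narrowest were red blood cell genes (0.11, 4 genes), immediate-early genes (0.57, 30 genes), glucocorticoid-induced genes (0.58, 28 genes), enteric neuron, glia and pacemaker genes (0.59, 24 genes) and collagens and matrix (0.60, 46 genes). Over the alternatives, the rank of a list among 45 moved widely, from 1 to 41 for goblet cell genes and 1 to 40 for oxidative phosphorylation. The B and plasma cell list stayed between ranks 1 and 4. The Hox list, collected with its values known, stayed between 1 and 6. No gene of any list was called at an adjusted p under 0.05.

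**Figure D3:**
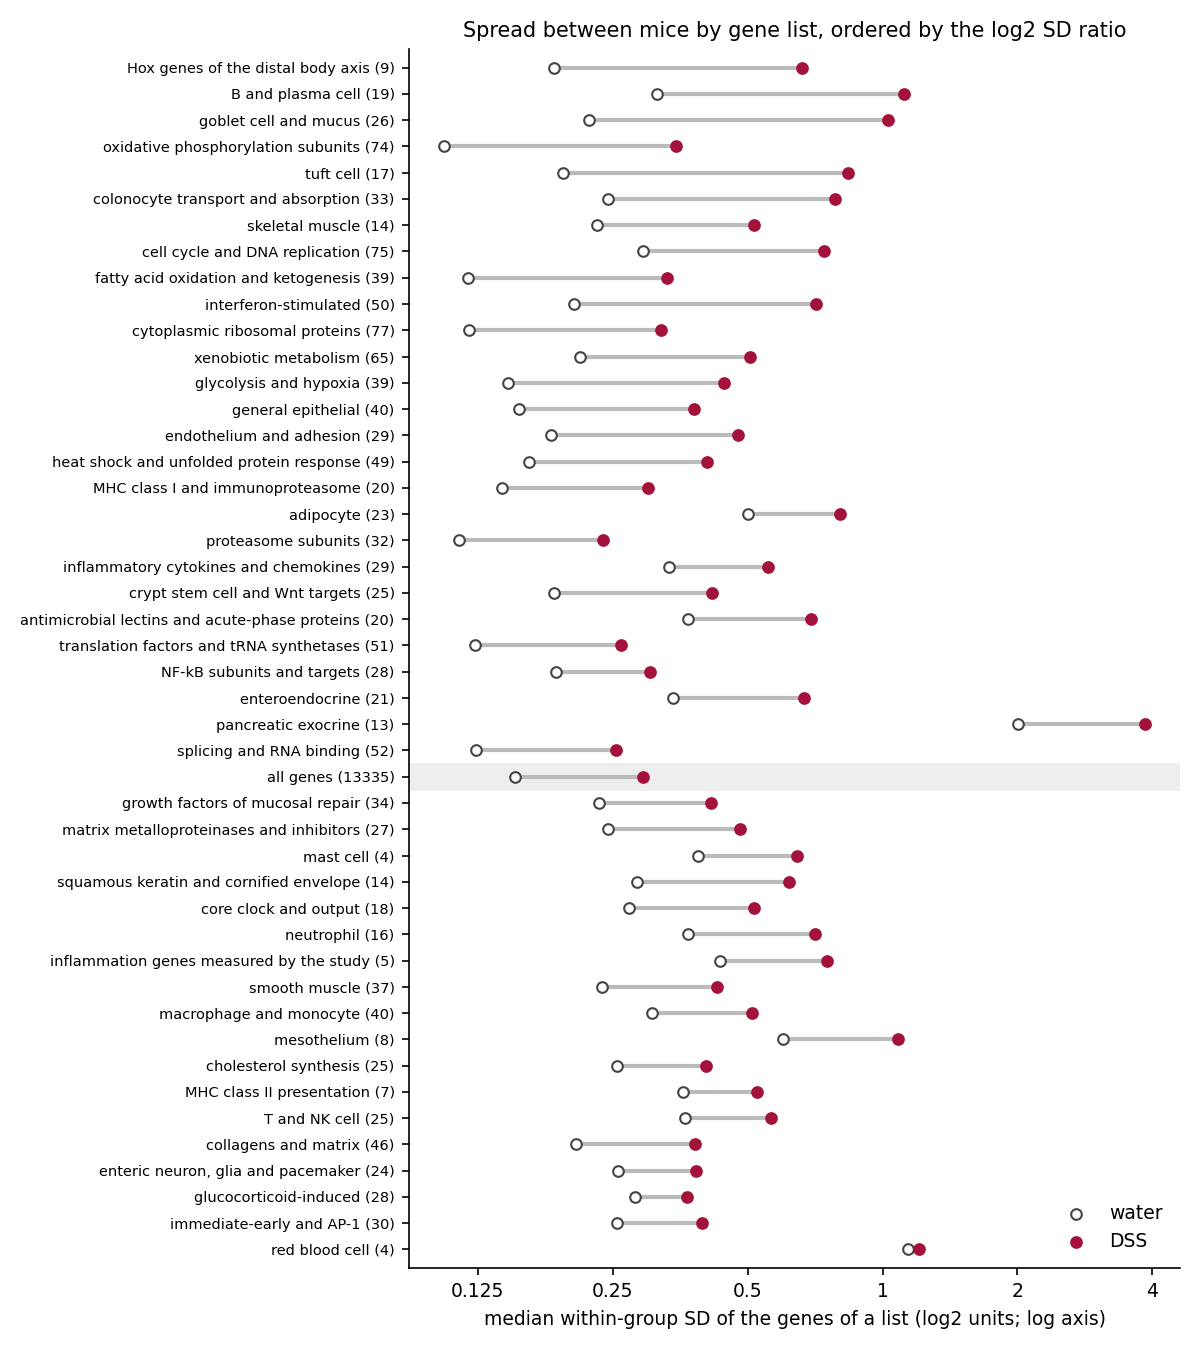
Median within-group SD (log2 units on a log axis) of the genes of 45 lists and of all genes on water (open) and DSS (filled), ordered from the largest to the smallest median log2 SD ratio, with the number of genes in brackets. Goblet cell genes go from 0.222 on water to 1.03 on DSS, whereas red blood cell genes lie at 1.14 and 1.20.

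Mice on DSS lay far apart in the products of goblet cells, which make the mucus layer, and of colonocytes. Of 26 goblet cell and mucus genes, 24 had the larger SD on DSS (86.4% of all genes did). At an unadjusted p under 0.05 it was larger for 17 (65.4%, against 17.8% of all genes). The mean level of the list against water of the same genotype was −2.23, −2.31 and −0.50 on Flox DSS 1, 2 and 4 and −1.73, −0.50 and −1.23 on GR iKO DSS 1, 3 and 4. Every DSS mouse was below its water group, and Flox DSS 4 and GR iKO DSS 3 were closest to it. Fcgbp, a mucus protein that binds the Fc part of IgG, was at 5.01, 4.47 and 7.71 in the Flox mice and 5.17, 8.12 and 5.87 in the GR iKO mice on DSS, and between 7.27 and 8.25 on water. The same 2 mice reached the water range and the other DSS mice lay below it. Clca1, a secreted goblet cell protein, was also highest in these 2 mice, with 7.34, 6.33 and 9.31 in Flox and 6.59, 8.97 and 7.60 in GR iKO on DSS against 8.05 to 8.75 on water. Muc2, the gel-forming mucin, had an SD of 0.398 on water and 1.11 on DSS. At the tight end of the list was C1galt1c1, the chaperone of an enzyme of mucin glycosylation, with an SD of 0.164 on water and 0.208 on DSS. The median log2 SD ratio of the list was 1.22 without Flox DSS 4 and 0.84 without both of these arrays, against 0.36 for all probes. With the pancreatic signal of each array as a covariate, an alternative chosen after seeing the data, it was 0.47 against 0.645 for all probes, and with the first axis of deviation removed 0.15 against 0.73, so that under both the list lay below the probes as a whole. The covariate was the mean deviation of 13 pancreatic genes, among them Sycn, Spink1 and Cela1, which were high on all water arrays. On DSS it was highest in Flox DSS 4 and GR iKO DSS 3, which also had the highest goblet cell means. It therefore cannot separate pancreatic RNA from the goblet cell values. How far the pancreatic RNA on an array takes part in the goblet cell values was not tested beyond this.

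Colonocyte genes were also closest to water in Flox DSS 4 and GR iKO DSS 3. Of 33 transport and absorption genes, 32 had the larger SD on DSS (86.4% of all genes did) and 17 (51.5%) did so at an unadjusted p under 0.05. The median log2 SD ratio was 1.48, and 1.06 without these 2 arrays. The list mean against own water was −1.42, −1.43 and −0.34 on Flox DSS 1, 2 and 4 and −1.39, −0.61 and −0.69 on GR iKO DSS 1, 3 and 4. Best2, a bestrophin channel, was at −3.17, −0.55 and 3.57 in Flox and −0.85, 3.57 and 0.29 in GR iKO on DSS, against 3.96 to 5.10 on water. Tgm3, a protein-crosslinking transglutaminase, and Mptx1, a mucosal pentraxin of the large bowel, are in neither list and ranked with Best2 among the widest genes of all. Tgm3 was at −3.60, −3.41 and 2.19 and at 0.02, 2.31 and −2.58, against 3.25 to 4.03 on water. Mptx1 was between 7.93 and 8.59 on water and at 3.43, 0.58 and 5.97 in Flox and 2.30, 6.88 and 2.05 in GR iKO on DSS. For these 3 genes no DSS mouse reached the water range, and the mice differed among themselves by over 5 log2 units. Their SD on DSS was 2.90 for Best2, 2.90 for Tgm3 and 2.71 for Mptx1, against 0.427, 0.279 and 0.242 on water (limma adjusted p = 0.221 for each). The log2 SD ratio of Best2, Tgm3 and Mptx1 was 2.77, 3.38 and 3.49, against 1.74, 2.22 and 2.57 without Flox DSS 4 and GR iKO DSS 3. With the pancreatic covariate it was 0.95, 1.005 and 0.0163. Cyp2c55, a cytochrome P450 of the colon, was spread from −4.29 in GR iKO DSS 1 to 3.93 in Flox DSS 4, with Flox DSS 1 and 2 at 0.92 and 2.36, GR iKO DSS 3 and 4 at 3.32 and 0.27 and the water mice between 2.90 and 4.88. At the tight end of the list, the amino acid transporter Slc6a14 had an SD of 0.174 on both treatments. The general epithelial list, which holds structural genes such as Epcam and Krt8, had a median SD of 0.380 on DSS, below the 0.785 of the colonocyte list and the 1.03 of the goblet cell list.

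Among the hormone genes of enteroendocrine cells, the list as a whole was near all genes, with a median log2 SD ratio of 0.95 (0.11 without Flox DSS 4 and GR iKO DSS 3) and 5 of 21 genes (23.8%) larger at an unadjusted p under 0.05. The list mean was above own water in all 6 mice, by 0.23, 0.06 and 0.65 in Flox DSS 1, 2 and 4 and by 0.48, 0.80 and 0.00571 in GR iKO DSS 1, 3 and 4. Its widest member ran the other way. Insl5, a hormone of colonic enteroendocrine L cells, was at 1.34, 1.28 and 5.77 in Flox and 3.92, 5.62 and 2.27 in GR iKO on DSS, against 5.99 to 6.64 on water. No DSS mouse reached the water range, and Flox DSS 4 and GR iKO DSS 3 came nearest. In the same list Pcsk1, a hormone-processing protease, was closer between mice on DSS (SD 0.146) than on water (0.495). Among tuft cell genes, 16 of 17 had the larger SD on DSS (86.4% of all genes did) and 10 (58.8%) did so at an unadjusted p under 0.05. The median log2 SD ratio was 1.71, and 1.10 without Flox DSS 4 and GR iKO DSS 3. Their list mean against own water was −1.02, −0.67 and −0.23 in Flox DSS 1, 2 and 4 and −0.83, 0.02 and −0.80 in GR iKO DSS 1, 3 and 4. Rgs13, a regulator of G protein signalling in tuft cells, had an SD of 0.281 on water and 1.37 on DSS, whereas Ptgs1, cyclooxygenase 1, had 0.193 and 0.169. Klk1, a tissue kallikrein counted in the goblet cell list, had the largest SD of that list. It was at 2.97, 3.10 and 7.14 in Flox and 2.07, 5.27 and 3.56 in GR iKO on DSS, against 6.10 to 6.82 on water. Klk1b21, Klk1b4, Klk1b8 and Klk1b3 were likewise highest in Flox DSS 4 and lowest in GR iKO DSS 1 among the DSS mice, but these paralogs are nearly identical in sequence and probes may not tell them apart.

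**Figure D4:**
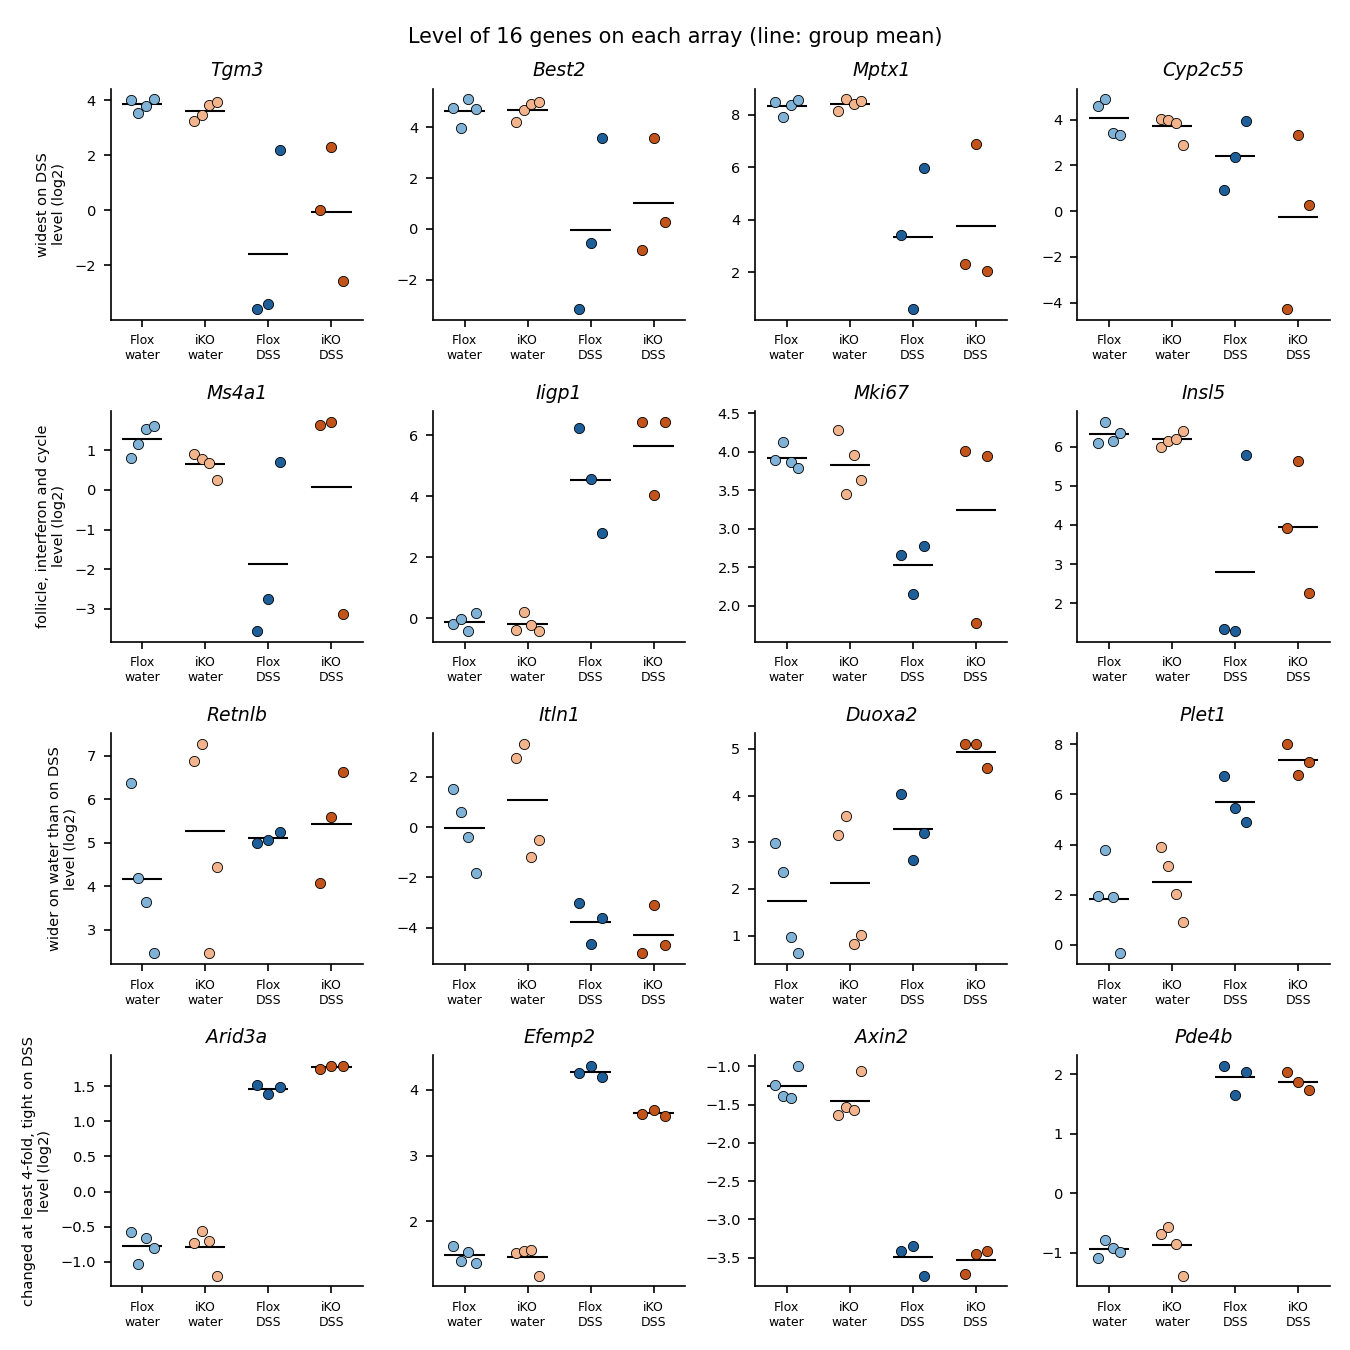
Level of 16 genes on each array (log2, array 75th percentile set to 0, linear axes that differ between panels, line at the group mean), in rows for genes widest on DSS, genes of lymphoid follicles, the interferon response, the cell cycle and a hormone, genes wider on water, and genes that differed at least 4-fold from water and were tight on DSS. Tgm3 runs from −3.60 to 2.31 on DSS against 3.25 to 4.03 on water, while Arid3a lies within 1.38 to 1.79 on DSS.

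Genes that mark position along the gut also varied. Hox genes of the 9 to 13 groups are expressed in the distal colon and hindgut, and the list was collected after values had been seen, so it carries no test. Hoxb13, the most distal of the B cluster, was at −2.14, −3.07 and 1.71 in Flox and 2.36, 2.46 and −0.16 in GR iKO on DSS, against 3.90 to 4.89 on water. No DSS mouse reached the water range. All 9 measured members had the larger SD on DSS (86.4% of all genes did), from 0.428 for Hoxb9 to 2.08 for Hoxb13. The median log2 SD ratio was 2.09 without Flox DSS 4 and GR iKO DSS 3.

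Lymphoid follicle genes divided the mice on DSS in a different way. Of 19 B and plasma cell genes all had the larger SD on DSS (86.4% of all genes did) and 12 (63.2%) did so at an unadjusted p under 0.05. The list mean against own water was −2.54 and −2.25 on Flox DSS 1 and 2, −1.92 on GR iKO DSS 4, −0.49 on Flox DSS 4, −0.10 on GR iKO DSS 1 and 0.29 on GR iKO DSS 3. Ms4a1, which encodes the B cell antigen CD20, was at −3.56, −2.75 and 0.72 in Flox and 1.64, 1.72 and −3.13 in GR iKO on DSS, against 0.24 to 1.60 on water. Flox DSS 1, Flox DSS 2 and GR iKO DSS 4 lay below all water mice, and the other 3 lay within or just above the water range. Cxcr5, the chemokine receptor that brings B cells into follicles, was at −4.62, −4.14 and −0.75 and at 0.33, 0.49 and −3.65, against −1.40 to −0.32 on water. Its ligand Cxcl13 was at −2.29, −1.64 and 0.55 and at 2.68, 2.16 and −0.75, against 0.05 to 1.02 on water. Tnfrsf13c, the receptor of the survival factor BAFF, and Vpreb3, a chaperone of the B cell receptor, divided the mice in the same 3 and 3. H2-Oa, an MHC class II chaperone of B cells, did so as well with −3.05, −2.39 and −0.67 in Flox and 0.44, 0.33 and −2.29 in GR iKO.

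A pair of plasma cell genes, named after their values were seen, was below water in all 6 mice. Tnfrsf17, the plasma cell receptor BCMA, was at −5.18, −4.12 and −2.98 in Flox and −4.54, −2.91 and −4.26 in GR iKO on DSS, against −0.23 to 0.82 on water. Jchain, which joins the units of secreted IgA, was at 1.498, 1.67 and 4.13 and at 3.33, 4.29 and 3.29, against 5.77 to 6.59. Neither gene overlapped between treatments. The B and plasma cell list kept a median log2 SD ratio of 1.47 without Flox DSS 4 and GR iKO DSS 3 and of 1.10 with the pancreatic covariate, under which the value of all probes was 0.645. T and NK cell genes were tighter, with a median log2 SD ratio of 0.61 and 1 of 25 genes larger at an unadjusted p under 0.05 (4%).

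**Figure D5:**
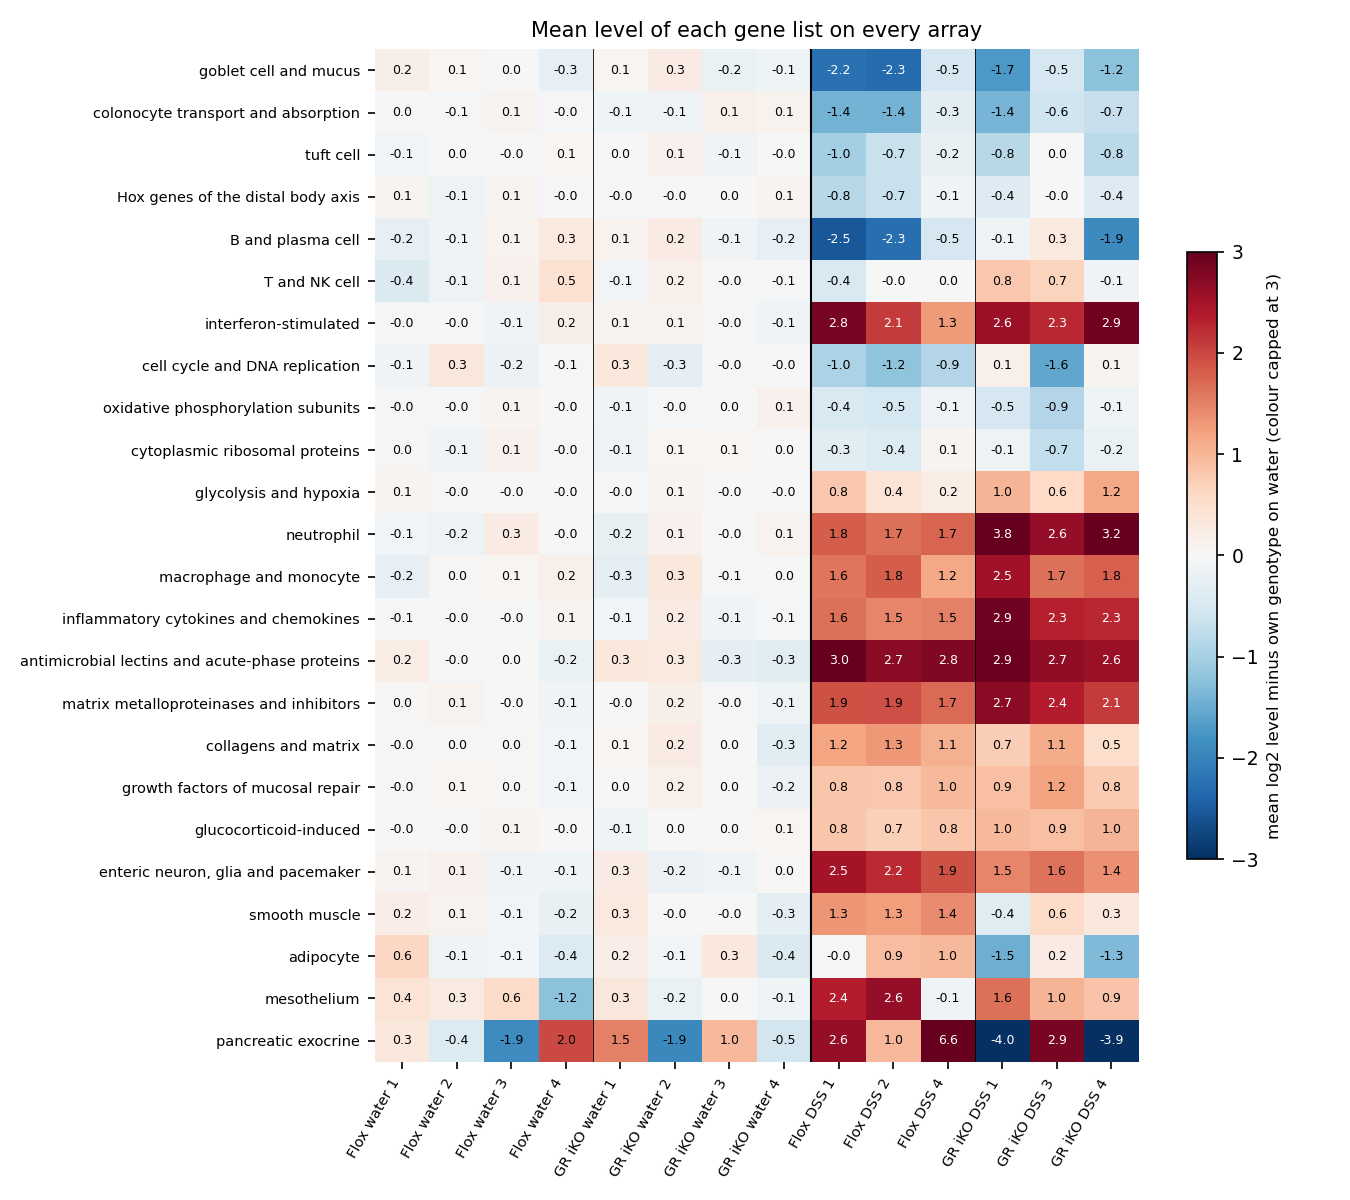
Mean level of 24 gene lists on each array minus the mean of the water arrays of the same genotype (log2 units, colour capped at 3, printed values to 1 decimal). Goblet cell, B cell and cell cycle genes each order the 6 DSS mice differently, whereas the means of antimicrobial and glucocorticoid-induced genes are nearly the same in all 6.

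Interferon-stimulated genes were above water in every mouse on DSS and unequal in size. Interferons switch on antiviral proteins, guanylate-binding proteins and immunity-related GTPases. Of 50 genes, 47 had the larger SD on DSS (86.4% of all genes did) and 24 (48%) did so at an unadjusted p under 0.05. The list mean against own water was 2.84, 2.10 and 1.27 on Flox DSS 1, 2 and 4 and 2.57, 2.25 and 2.90 on GR iKO DSS 1, 3 and 4. Tgtp1, Gbp6 and Iigp1, GTPases induced by interferon gamma, were among the 4 genes of the list with the largest SD on DSS, and the other was Ido1, a tryptophan-degrading enzyme with an SD of 1.67 on water and 1.56 on DSS. Iigp1 was at 6.24, 4.58 and 2.81 in Flox and 6.45, 4.03 and 6.43 in GR iKO on DSS, against −0.42 to 0.22 on water. Tgtp1 was at 4.47, 3.19 and 1.08 and at 5.19, 2.45 and 4.93, against −0.91 to −0.14, and Gbp6 at 2.22, 0.66 and −1.005 and at 3.19, 0.37 and 2.77, against −3.27 to −2.31. No value of these 3 genes on DSS overlapped water, and Flox DSS 4, GR iKO DSS 3 and Flox DSS 2 were the lowest mice for each. Isg15, a ubiquitin-like antiviral protein, was at 3.28, 2.21 and 1.47 and at 2.61, 3.09 and 3.30, with GR iKO DSS 3 no longer among the lowest. The list had a median log2 SD ratio of 1.00 without Flox DSS 4 and GR iKO DSS 3.

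The promoters of 3 interferon-stimulated genes are shown because paired GAAA elements are known from such genes, and they are the 3 with the largest SD on DSS among members whose promoter held the motif. They are the 250 bases before the start of the gene from RefSeq on GRCm38.p6, 5′ to 3′ on the strand of the gene, and capitals mark a match to GAAANNGAAA. Tgtp1 lies at chr11:48992247-48992496 on the minus strand, Igtp at chr11:58199306-58199555 on the plus strand and Cxcl10 at chr5:92348890-92349139 on the minus strand.
Tgtp1: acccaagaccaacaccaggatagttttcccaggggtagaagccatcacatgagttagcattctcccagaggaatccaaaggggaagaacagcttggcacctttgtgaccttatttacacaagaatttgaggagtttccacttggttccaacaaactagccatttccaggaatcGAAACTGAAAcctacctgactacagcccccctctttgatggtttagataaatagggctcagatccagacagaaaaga
Igtp: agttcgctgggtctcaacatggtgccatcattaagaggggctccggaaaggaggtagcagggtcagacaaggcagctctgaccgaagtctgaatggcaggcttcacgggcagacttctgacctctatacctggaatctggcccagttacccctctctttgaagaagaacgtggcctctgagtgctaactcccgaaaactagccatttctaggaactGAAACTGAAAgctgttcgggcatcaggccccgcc
Cxcl10: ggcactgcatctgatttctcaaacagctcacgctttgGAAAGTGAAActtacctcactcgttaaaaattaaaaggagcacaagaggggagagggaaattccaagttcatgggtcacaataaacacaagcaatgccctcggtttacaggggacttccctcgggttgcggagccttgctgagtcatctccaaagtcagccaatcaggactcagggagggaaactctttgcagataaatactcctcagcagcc
The motif was searched on both strands of the 300 bases from 250 before to 50 after each start. It was present in 3.49% of 27025 promoters and in 20 of the 36 list members with a promoter in that table (55.6%). Counted from the start, it began at −77 in Tgtp1, −34 in Igtp and −213 in Cxcl10. The median SD on DSS was 0.818 for the 20 members with a match and 0.550 for the 16 without. Their median log2 SD ratios were closer, at 1.75 and 1.57. A match is a description of these letters and not a site of binding. Igtp, an immunity-related GTPase, had an SD of 0.0942 on water and 1.35 on DSS, and Cxcl10, a T cell chemokine, had 0.512 and 1.08.

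Proliferation separated 1 GR iKO mouse from the other 2. Cell cycle and DNA replication genes were at −0.96, −1.21 and −0.89 against own water on Flox DSS 1, 2 and 4, close to each other, and at 0.15, −1.57 and 0.07 on GR iKO DSS 1, 3 and 4. Of 75 genes, 74 had the larger SD on DSS (86.4% of all genes did). At an unadjusted p under 0.05 it was larger for 9 (12%), below the 17.8% of all genes. The median log2 SD ratio was 1.45, and −0.18 without GR iKO DSS 3. Mki67, which encodes the proliferation antigen Ki-67, was at 2.66, 2.15 and 2.77 in Flox and 4.01, 1.78 and 3.94 in GR iKO on DSS, against 3.44 to 4.28 on water. GR iKO DSS 1 and 4 lay in the water range and the other 4 mice below it. Cdk1, the mitotic kinase, and Top2a, a DNA topoisomerase, were also lowest in GR iKO DSS 3, at −2.30 and −2.14. Claudin 2, Cldn2, a pore-forming tight junction protein of the crypt, was at −4.55 in GR iKO DSS 3 and between −2.15 and 0.28 in the other DSS mice, against 1.31 to 1.96 on water.

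Mitochondrial and ribosomal genes differed between mice by small amounts, and together. All 74 oxidative phosphorylation subunits had the larger SD on DSS (86.4% of all genes did) and 41 (55.4%) did so at an unadjusted p under 0.05. Their median SD was 0.105 on water and 0.346 on DSS. The median log2 SD ratio of 1.76 was 0.83 without Flox DSS 4 and GR iKO DSS 3. Their mean against own water was −0.45, −0.53 and −0.09 on Flox DSS 1, 2 and 4 and −0.49, −0.88 and −0.13 on GR iKO DSS 1, 3 and 4. Atp5g1, a subunit of the ATP synthase, had the widest spread, with 4.05, 3.85 and 4.41 in Flox and 4.80, 3.46 and 4.69 in GR iKO on DSS against 5.005 to 5.47 on water. The shift common to all members held 78.6% of the within-group variance of the list on DSS and 48.9% on water. All 77 cytoplasmic ribosomal protein genes also had the larger SD on DSS, and the shift common to all of them held 77.2% of their within-group variance there. Their list mean against own water was −0.34, −0.41 and 0.08 in Flox and −0.14, −0.73 and −0.20 in GR iKO. Their median log2 SD ratio of 1.41 was −0.00198 without Flox DSS 4 and GR iKO DSS 3. Proteasome, splicing and translation factor genes had the smallest SDs on DSS of all lists, with medians of 0.238, 0.255 and 0.261. Their SDs were already low on water, at 0.113, 0.124 and 0.123. With median log2 SD ratios of 1.08, 0.94 and 1.01, they widened about as much as all genes (0.93). Glycolysis and hypoxia genes were above water in all mice, by 0.80, 0.41 and 0.23 and by 1.01, 0.60 and 1.17. Slc16a3, the lactate exporter, spanned 4.37, 3.74 and 2.20 in Flox and 4.40, 2.94 and 5.25 in GR iKO on DSS, against 1.17 to 1.68 on water.

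For several lists the mean difference from water was nearly equal in every mouse, while single members could still vary. Crypt stem cell and Wnt target genes were at −0.27, −0.28 and −0.07 against own water in Flox DSS 1, 2 and 4. In GR iKO DSS 1, 3 and 4 they were at −0.26, −0.09 and −0.20. Antimicrobial lectins and acute-phase proteins were above own water by 3.02, 2.70 and 2.77 in Flox and 2.94, 2.65 and 2.60 in GR iKO, and glucocorticoid-induced genes by 0.82, 0.72 and 0.84 and by 0.96, 0.91 and 1.03. The median SD of a member on DSS was 0.693 in the first list and 0.366 in the second, against 0.292 for all genes, and the shift common to all members held 3.95% and 1.53% of the within-group variance. Reg3b, an antibacterial lectin, was at 8.64, 7.75 and 9.46 in Flox and 6.58, 7.64 and 8.56 in GR iKO on DSS, against −3.74 to −0.85 on water, with an SD of 1.00 on water and 0.926 on DSS. In the glucocorticoid list, Tsc22d3, a direct target of the receptor known as GILZ, had an SD of 0.290 on water and 0.134 on DSS, whereas Fkbp5, another target, had 0.220 and 0.767. Other lists had a low SD ratio and a mean that differed more between mice. Enteric neuron, glia and pacemaker genes were above own water by 2.49, 2.24 and 1.90 in Flox and 1.45, 1.63 and 1.38 in GR iKO. Matrix metalloproteinases and inhibitors were above by 1.92, 1.94 and 1.70 and by 2.71, 2.35 and 2.10. Mmp14, which sits in the cell membrane and cuts collagen, had an SD of 0.0815 on water and 0.0935 on DSS, while Mmp7, an epithelial protease, had 0.424 and 1.31.

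Among the 29 of 49 listed inflammatory cytokines and chemokines measured on all 14 arrays, the median log2 SD ratio was intermediate, at 1.07. Of these 29 genes, 4 (13.8%) were larger at an unadjusted p under 0.05. Genes well above background on all DSS arrays but not on all water arrays are outside these values. Among them the SD on DSS was 1.81 for Il22, 1.72 for Cxcl5 and 0.528 for Il6. Il1b, interleukin 1 beta, was at 3.00, 2.62 and 1.94 in Flox and 5.37, 3.75 and 5.32 in GR iKO on DSS, against −3.66 to −2.39 on water. S100a9, a neutrophil protein and subunit of calprotectin, was at 5.93, 5.13 and 4.42 and at 7.86, 6.12 and 7.64, with an SD of 1.03 on water and 0.857 on DSS. All DSS mice were above all water mice for both genes, and Il1b had an SD of 0.434 on water and 0.753 on DSS. Lrg1, an acute-phase glycoprotein, was at 4.06 to 4.39 in 5 of the DSS mice and at 7.29 in GR iKO DSS 1.

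Among the 440 genes whose mean differed at least 4-fold from water in both genotypes and in the same direction, the 8 with the smallest SD on DSS were Arid3a, Efemp2, Tspan33, Axin2, Pde1a, Pde4b, D16Ertd472e and Hgf. Arid3a, a DNA-binding factor, was at 1.52, 1.38 and 1.49 in Flox and 1.75, 1.78 and 1.79 in GR iKO on DSS, against −1.20 to −0.56 on water. Efemp2, fibulin 4 of elastic fibres, was at 4.25, 4.36 and 4.19 and at 3.64, 3.69 and 3.60, against 1.18 to 1.63. Axin2, a target and inhibitor of Wnt signalling, was at −3.41, −3.35 and −3.73 and at −3.71, −3.45 and −3.41, against −1.64 to −0.99. Treatments did not overlap for these genes, which the 4-fold rule makes likely. The rule took the smallest SD on DSS, so the tightness of these genes is how they were found. Hgf, a growth factor of epithelial repair, was in this set with an SD of 0.223 on DSS, and Pde4b, a phosphodiesterase that breaks down cyclic AMP, with 0.209. A further rule took the smallest SDs on DSS among 6131 genes above the 75th percentile of the array on all arrays. These were Manbal (0.0223), the spliceosome core protein Prpf8 (0.0230) and the ubiquitin ligase adaptor Ndfip1 (0.0265). Next came the Fanconi anaemia protein Fance (0.0274), Tbc1d23 (0.0308) and Ggnbp2 (0.0315). Their tightness is likewise how they were found, and their SDs lay below the median SD of spike-in probes on DSS (0.0503). Their log2 SD ratios, negative in the main setting, were 1.07 to 1.75 with spike-in scaling. With quantile normalization the ratio was positive for Manbal (0.61) and Ggnbp2 (0.51) and stayed negative for the others. Whether these genes were tighter on DSS than on water therefore depended on the scaling.

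Some genes were wider on water. The SD was smaller on DSS in both genotypes for 884 genes, and the 8 with the largest difference were Retnlb, Itln1, Duoxa2, Plet1, Sptssb, Zfand4, Pla2g4c and Ang. In the antimicrobial and acute-phase list 16 of 20 genes had the larger SD on DSS, with a median log2 SD ratio of 1.03. Over all genes the SD was larger on DSS for 86.4% and the median log2 SD ratio was 0.93, so the list was near all genes. Retnlb, an antibacterial goblet cell protein, was at 6.38, 4.18, 3.65 and 2.46 in Flox and 6.88, 7.28, 2.48 and 4.44 in GR iKO on water, and at 5.002, 5.06 and 5.24 and at 4.08, 5.60 and 6.63 on DSS. The DSS values lay inside the water range, and Flox DSS mice were nearly equal. Itln1, an intelectin that binds microbial sugars, was at 1.52, 0.61, −0.40 and −1.82 and at 2.74, 3.31, −1.18 and −0.51 on water, and between −5.03 and −3.03 on DSS. Duoxa2, which matures the hydrogen peroxide enzyme DUOX2, was at 2.99, 2.35, 0.98 and 0.62 and at 3.15, 3.56, 0.82 and 1.01 on water, and at 4.04, 2.63 and 3.20 and at 5.10, 5.11 and 4.60 on DSS. Flox water 1, GR iKO water 1 and GR iKO water 2 were the highest water mice for Retnlb and Itln1, and Flox water 4 and GR iKO water 3 the lowest. Ang, an angiogenin, and its paralog Ang4, a microbicidal protein of the crypt, gave nearly the same order of water mice, with Ang4 from 4.08 to 7.88 on water and from −0.58 to 2.56 on DSS. Angiogenin genes are close paralogs whose probes may share signal. The SD ratio was also computed from the residuals of a model with the replicate number as a block. There, 7 of these 8 genes no longer had the negative sign. The log2 ratio was 0.08 for Retnlb, 0.39 for Itln1, 0.56 for Duoxa2, 0.000621 for Plet1, 0.17 for Sptssb, 0.27 for Pla2g4c and 0.07 for Ang, and −0.45 for Zfand4. The median over all probes was 0.44 there in place of 0.87, and all of these genes but Duoxa2 lay below it. The block is fitted on water and DSS arrays together, so a wide spread on water enters the residuals on DSS. The change of sign therefore does not decide whether these genes were wider on water.

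Tissue at the outside of the colon was unequal between mice as well. Adipocyte genes, which mark mesenteric fat, were at −0.03, 0.92 and 0.96 against own water on Flox DSS 1, 2 and 4 and at −1.46, 0.24 and −1.33 on GR iKO DSS 1, 3 and 4. Adipoq, the fat hormone adiponectin, was at 1.55, 3.54 and 2.65 and at −1.56, 1.92 and −1.88, against 0.82 to 2.44 on water. Mesothelium genes, which mark the outer lining, were at 2.35, 2.64 and −0.09 in Flox and 1.64, 1.03 and 0.85 in GR iKO. Their median log2 SD ratio was 0.72, and −0.66 without Flox DSS 4. Smooth muscle genes were at 1.32, 1.25 and 1.42 in Flox and at −0.37, 0.58 and 0.34 in GR iKO, with a median log2 SD ratio of 0.75, and 0.06 without GR iKO DSS 1. The squamous keratin Krt5 of the anal margin had an SD of 0.247 on water and 0.230 on DSS. The part these tissues have in the spread of other lists was not tested.

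The pancreatic genes led the ranking by SD without being particular to DSS. Clps, the cofactor of pancreatic lipase, was at 6.29, 4.20 and 9.84 in Flox and −2.52, 6.66 and −1.06 in GR iKO on DSS, and from 2.27 to 5.16 on water. Cela1, an elastase, was at 4.84, 2.84 and 9.40 and at 0.09, 5.55 and 0.55 on DSS, and from 3.84 to 4.69 on water, which included the water arrays where other pancreatic genes were near their lowest. Sycn, syncollin, and Spink1, a trypsin inhibitor, were likewise high on all water arrays, from 7.19 to 8.21 and from 6.17 to 7.56. Cpb1, carboxypeptidase B, had nearly equal SDs of 3.89 on water and 4.44 on DSS. Probes that were well above background on all 6 DSS arrays but not on all water arrays stood for a further 378 genes with a median SD on DSS of 0.579. The widest of these were again pancreatic, namely Pnlip, Cpa1, Prss2, Cela3b, Amy2a5 and Reg2. Mc3r, Tmed6 and Dnaic1 were highest on Flox DSS 4, where they were at 4.26, 4.11 and 3.77 against at most −1.34, 0.06 and −0.56 on the other DSS arrays. Without Flox DSS 4 the log2 SD ratio was 0.31 for Mc3r in place of 2.60, 1.89 for Tmed6 in place of 2.57 and 2.23 for Dnaic1 in place of 3.78.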

How the data were processed

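Colon RNA of 14 mice was hybridised to 1-colour Agilent whole mouse genome arrays, 1 array per mouse. Per the labels and file headers, the authors extracted intensity values with Agilent Feature Extraction 12.0.0.7 (background-subtracted processed signal), and the deposited value table holds log2 values from Partek 6.6, whose background step is not given in the sources used here. Here log2 of the processed signal minus its 75th percentile per array was used, control spots and outlier flags were left out and spots of a probe averaged. Deviations from group means gave variances with 4 degrees of freedom on DSS and 6 on water. The log variances of the 4 groups were tested with limma 3.58.1 in R 4.3.3 with Benjamini-Hochberg adjustment, and the scripts were tested on simulated data. Median deviations per array were compared by exact permutation tests. Deviations of an array were divided by the square root of 1 minus its leverage.

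For each gene the probe with the highest mean signal was used. Named genes were the 12 with the largest difference of SD, DSS minus water, larger in both genotypes (the rule asked for called genes, but none was called), the 8 with the largest opposite difference, the 8 with the smallest SD on DSS among genes differing at least 4-fold, the 6 with the smallest SD among bright genes, the widest and tightest member of each list, Nr3c1, and the 6 widest genes measured on all DSS arrays but not on all arrays. Further members were named after their values were seen. Members and lists were chosen with earlier results of these data known. Slide position and group cannot be told apart. Nothing beyond separate mice is stated of the replicates, and the number of arrays limits the precision. Some genes that the rule names are not reported here.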

Additional observations from a re-analysis of the deposited data

Results flagged for a closer look

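In 8 of 166 checks of a gene or list within a group of 4 water arrays, 1 array lay far from the other 3, with a gap to its nearest neighbour that took more of the group's range than Dixon's 95% critical value allows. Chance gives this in about 5% of groups. Among genes, the share of the range was 0.8477 for Cyp2c55, 0.8949 for Efemp2 and 0.9868 for Manbal, each through GR iKO water 4. Among list means in GR iKO on water it was 0.9611 for cholesterol synthesis and 0.923 for inflammatory cytokines and chemokines. In Flox on water it was 0.9093 for enteroendocrine genes, 0.8311 for mesothelium genes and 0.8875 for red blood cell genes. The DSS groups hold 3 arrays each and were not checked in this way.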

How the results depend on the processing

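The median log2 SD ratio of 0.87 was 0.36 without Flox DSS 4 and GR iKO DSS 3 and 1.47 with spike-in scaling. It was 0.44 with a replicate block and 0.48 with a slide block, where the same measure was taken from the residuals of a model with that block. Leaving out 1 array gave 0.68 to 1.00. The percent of probes with the larger SD on DSS, 85.1, was 62.9 without both arrays, 72.9 without the filter and 97.2 with spike-in scaling, and 76.2 to 87.2 leaving out 1 array. The 0 called probes were 9 with a genotype term, 1645 by limma on absolute deviations, 1368 by the F ratio and 15690 with spike-in scaling, and 0 leaving out any 1 array. Relative to the common rise, 2 were called with a genotype term and 0 leaving out any 1 array. The 3849 probes larger at an unadjusted p under 0.05 were 2175 among brighter probes (mean signal above the median), 7310 by absolute deviations, 6714 by the F ratio, 2561 by absolute deviations with the replicate block, 2390 with 1 probe per gene, 756 without both arrays and 17230 with spike-in scaling, and 2535 (without Flox DSS 4) to 4920 leaving out 1 array. The 94 smaller were 169 with a filter of 3 of 14 arrays, 308 without a filter, 41 among brighter probes, 148 by absolute deviations, 436 with the first axis removed, 41 with 1 probe per gene, 339 without both arrays, 289 with the pancreatic covariate and 25 with spike-in scaling, and 63 to 256 leaving out 1 array. The difference of 0.0990 between arrays was 0.0525 without both arrays (exact p = 0.0727), 0.0516 with the replicate block and 0.0601 with the slide block on absolute deviations, 0.377 with spike-in scaling and 0.0781 to 0.120 leaving out 1 array. Leaving out both arrays, the pancreatic covariate and spike-in scaling were chosen after seeing the data. The cause of these differences was not tested. The deviations of 18 same-numbered pairs correlated at −0.215 to 0.457, with a median of 0.123. Whether replicate numbers pair the samples cannot be told from these values.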
